A study of Mus musculus with 12 samples.

Results

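The genes described here are 10 regulators of mitochondrial and lipid gene programs, matched by name to the rows of the deposited count table. They are the fatty acid receptors Ppara, Ppard and Pparg, their partner Rxra, the coactivators Ppargc1a and Ppargc1b, the orphan receptors Esrra and Esrrg, the nuclear respiratory factor Nrf1 and the mitochondrial transcription factor Tfam. All 10 were among its 29564 genes, and all 10 were among the 14333 genes that passed the filter on low counts. Messenger RNA was sequenced from the left ventricles of 12 wild-type C57BL6 mice, 1 library a mouse and 4 mice a group. Control-Veh mice were non-failing, were fed standard chow and received vehicle. HFpEF-Veh mice received vehicle after a high-fat diet and L-NAME, an inhibitor of nitric oxide synthase, a regimen used to model heart failure with preserved ejection fraction. HFpEF-TYA-018 mice had the same diet and L-NAME and were given 15 mg/kg TYA-018, an inhibitor of the cytoplasmic deacetylase HDAC6, by mouth. Sources differ on the dosing, since the title of the series speaks of one dose and the treatment notes of dosing every day for weeks. The study's own account places a sequencing experiment with TYA-018 hours after one dose, as in the title. The study's methods describe male mice, and the labels give no sex, age or batch. The animal numbers of each group lie together, so cage or processing order cannot be told apart from group. The diet and L-NAME came together in both HFpEF groups, so their effects cannot be told apart.

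Libraries carry the letter C for Control-Veh, V for HFpEF-Veh and T for HFpEF-TYA-018, numbered from 1 to 4. Total estimated counts ran from 61.2 M to 83.9 M, and T1 was the deepest. Messenger RNA encoded in mitochondria took 37.0% to 40.6% of the counts in Control-Veh, 43.1% to 47.7% in HFpEF-Veh and 35.4% to 41.2% in HFpEF-TYA-018. Globin messenger RNA took 0.420% to 1.32% in HFpEF-Veh and at most 0.341% in the other libraries. The tissue label held against its markers. The 7 cardiomyocyte genes summed to between 17748.2 and 30475.5 CPM (a gene's share of the counts in its library) in the 12 libraries, and the 3 testable atrial genes to at most 2.87 CPM. Fat markers were near 0, with the 2 testable genes (Adipoq and Cidec) summing to at most 0.922 CPM. In whole tissue, fewer cells of a type and less RNA in each cell cannot be told apart.

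These proteins form a layered system. The peroxisome proliferator-activated receptors (PPARs) bind fatty acids and their derivatives, pair with retinoid X receptors such as RXRA, and switch on genes for fatty acid uptake, storage and oxidation. The estrogen-related receptors (ERRs) bind without a known natural hormone and, with the coactivators PGC-1 alpha (Ppargc1a) and PGC-1 beta (Ppargc1b), drive genes of the citric acid cycle and the respiratory chain. NRF1 drives nuclear genes for respiratory subunits and for the machinery of mitochondrial DNA, and TFAM packs and transcribes that DNA.

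The start regions of Esrra, Tfam and Pparg are shown because these were the 3 members whose counts differed between dosed and undosed HFpEF hearts. Each is a window of 300 bases around a start site annotated by RefSeq on GRCm38.p6, most of it upstream, on the strand of the gene. Capitals mark matches to a spelled motif on either strand: TNAAGGTCA (the ERR element), AGGTCA (the core read by nuclear receptors, also contained in the ERR element), GCGCANGCG (NRF1) and CCGGAAG (the ETS family, which includes GABP).
Esrra, chr19:6921759-6922058, minus strand: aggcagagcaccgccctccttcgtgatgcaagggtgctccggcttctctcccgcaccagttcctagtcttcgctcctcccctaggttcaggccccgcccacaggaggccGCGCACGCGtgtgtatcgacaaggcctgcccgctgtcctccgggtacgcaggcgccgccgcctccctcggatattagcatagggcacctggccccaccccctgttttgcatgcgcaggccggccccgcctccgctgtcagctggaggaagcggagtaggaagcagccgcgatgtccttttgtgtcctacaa
Tfam, chr10:71237995-71238294, minus strand: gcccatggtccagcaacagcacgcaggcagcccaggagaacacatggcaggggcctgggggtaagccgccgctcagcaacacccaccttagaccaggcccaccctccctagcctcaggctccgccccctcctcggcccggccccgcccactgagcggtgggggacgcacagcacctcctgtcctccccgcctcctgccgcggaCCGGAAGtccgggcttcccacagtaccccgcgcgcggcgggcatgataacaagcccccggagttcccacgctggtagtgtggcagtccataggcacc
Pparg start region 1, chr6:115360894-115361193, plus strand: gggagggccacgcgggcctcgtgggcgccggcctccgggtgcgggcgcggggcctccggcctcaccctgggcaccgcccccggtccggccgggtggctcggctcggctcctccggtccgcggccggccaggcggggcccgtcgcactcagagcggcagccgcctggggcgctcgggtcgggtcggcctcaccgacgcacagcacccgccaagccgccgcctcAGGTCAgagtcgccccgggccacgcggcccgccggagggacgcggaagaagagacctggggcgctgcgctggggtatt
Pparg start region 2, chr6:115362099-115362398, plus strand: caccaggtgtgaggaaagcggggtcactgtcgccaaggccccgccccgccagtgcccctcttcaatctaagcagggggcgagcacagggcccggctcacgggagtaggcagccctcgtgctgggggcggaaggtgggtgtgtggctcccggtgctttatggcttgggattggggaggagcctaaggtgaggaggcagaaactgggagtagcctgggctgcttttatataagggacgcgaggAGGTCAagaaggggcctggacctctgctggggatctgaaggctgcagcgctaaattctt
Esrra carried the NRF1 letters with their first base at -141, counted from the start site. Tfam carried the ETS letters at -47. The Pparg regions shown carried the receptor core, at -28 and at -9. The other Pparg start region in the table, chr6:115421816-115422115, held none of the spelled motifs and is not shown. Such letters also occurred in members that were not called after TYA-018. Ppara held the NRF1 letters at -31 and, on the other strand, at -30. Start region 2 of Rxra held the receptor core at -48 and, on the other strand, at -87. Of all 32851 RefSeq start regions of this length in the table, 6.25% held the NRF1 letters, 8.86% the ETS letters, 16.3% the receptor core and 1.28% the ERR element. None of the start regions found for 9 of the members held the ERR element, the letters TGACGTCA of a cAMP response element or the letters CACGTG of an E-box, and no sequence of Ppargc1b was used. Among the 10421 tested genes with such a region, the NRF1 letters were present for 14.3% of all, for 16.5% of the 962 genes called higher after TYA-018 and for 11.1% of the 1069 called lower. The ETS letters were present for 18.4%, 20.6% and 12.4%, and the ERR element for 0.931%, 0.936% and 0.935%. In HFpEF-Veh against Control-Veh, the NRF1 letters were present for 9.72% of the 1162 genes called higher and 14.4% of the 1099 called lower, the ETS letters for 12.7% and 18.4%, and the ERR element for 0.947% and 1.64% (11 and 18 genes). None of these shares was tested. A match is a description of letters and not of binding.

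Levels were compared between members in TPM, a share of all transcripts that corrects for gene length. Esrra was the most abundant member, at 11.9 to 34.6 TPM over the 12 libraries, and no other member reached its range. Tfam followed at 3.15 to 10.8 TPM and stood above Ppard (2.91 to 5.93 TPM) in 11 of 12 libraries, although the ranges overlapped. Rxra, Ppargc1a and Pparg were not ordered beyond their spread, with means of 2.17, 2.15 and 2.14 TPM and ranges that overlapped.

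Nrf1 lay at 0.943 to 2.11 TPM and overlapped those 3 genes, below Rxra and Ppargc1a in 11 of 12 libraries and Pparg in 10. Ppargc1b (0.383 to 1.13 TPM), Esrrg (0.381 to 0.939 TPM) and Ppara (0.0567 to 1.08 TPM) closed the order, and their ranges overlapped too. Ppara was also lowest in mean CPM (4.05), next to Ppargc1b (4.08). Its TPM varied with its length. The deposited effective length, the number of bases over which its reads were taken to fall, ran from 1770 to 19973 bases, whereas its longest transcript in GENCODE M21 has 3413 bases. Its TPM therefore differed 19.1-fold between libraries while its CPM differed 2.60-fold. The effective length passed the longest annotated transcript in 6 of 12 libraries for Ppara, 9 for Esrrg, 11 for Ppargc1a and 12 for Rxra, and in none for the other members. Fold changes between groups were taken from counts, as CPM with TMM scaling (a trimmed mean of log ratios).

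**Figure D1:**
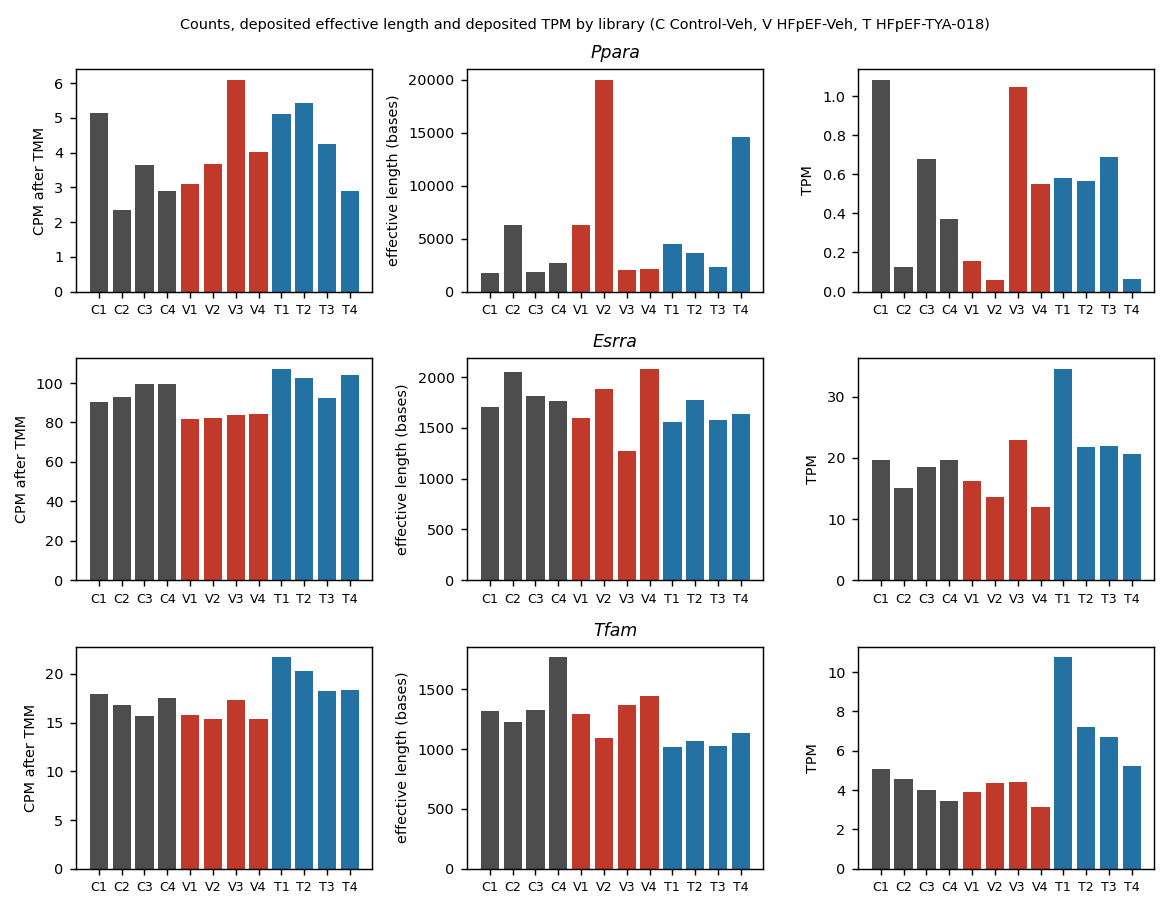
Counts after TMM (CPM), deposited effective length (bases) and deposited TPM of Ppara, Esrra and Tfam, 1 bar a library, coloured by group (grey Control-Veh, red HFpEF-Veh, blue HFpEF-TYA-018). The Ppara bars of V2 and T4 are the tallest in length (19973 and 14616 bases) and the shortest in TPM, and T1 stands highest in TPM for Esrra and Tfam (34.6 and 10.8).

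HFpEF-Veh was first compared with Control-Veh, which asks how the diet and L-NAME altered the regulators. Of the 10 members, 2 were called at an adjusted p under 0.05 (edgeR quasi-likelihood test, Benjamini-Hochberg over all 14333 genes). Ppard was higher and Esrra was lower. Over all tested genes 21.2% were called, 10.9% higher and 10.3% lower, so 2 of 10 members is a share near the background. The median log2 fold change was -0.04 over the members and -0.01 over all genes. The groups did not overlap for 3 members (Ppard, Pparg and Esrra), against 23.5% of all tested genes.

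HFpEF-TYA-018 was then compared with HFpEF-Veh, which asks what a dose of TYA-018 altered. Esrra and Tfam were higher after TYA-018 and Pparg was lower, 3 of 10 members called where 19.3% of all tested genes were (8.93% higher and 10.4% lower). The groups did not overlap for these 3 members, against 25.1% of all tested genes. The median log2 fold change was 0.02 over the members and 0.00 over all genes. This comparison and the first share the HFpEF-Veh libraries.

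Between HFpEF-TYA-018 and Control-Veh, 0 of 10 members were called by edgeR, and 2 (Ppard and Tfam) had an unadjusted p under 0.05, as did 3219 of the 14333 genes. DESeq2 also called 0, and edgeR with effective lengths as an offset called 1, Tfam. Over all tested genes 5.86% were called in this comparison (3.12% higher and 2.74% lower). The groups did not overlap for Tfam alone among the members, against 14.8% of all tested genes. A test of any difference across the 3 groups called Pparg, Esrra and Tfam, against 27.6% of all tested genes.

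**Figure D2:**
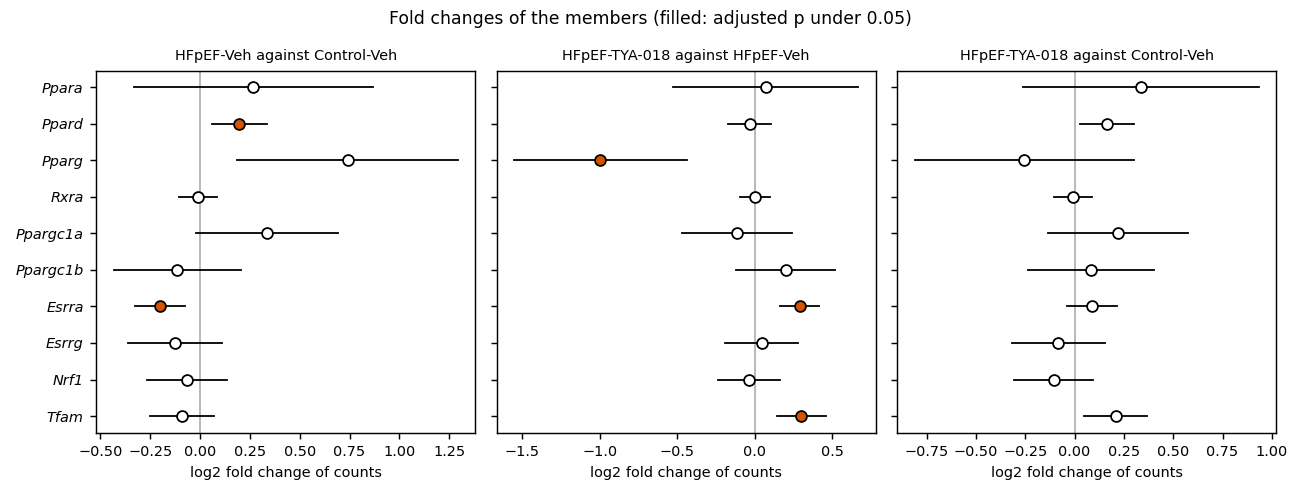
Log2 fold change of counts of each member in the 3 comparisons, with 95% intervals as lines. Filled circles are members called at an adjusted p under 0.05, namely Ppard and Esrra in the first panel, Pparg, Esrra and Tfam in the second and none in the third.

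Among the receptors, Pparg (chr6:115360951-115490399, plus strand, GRCm38) had the largest fold changes in the first and second comparison. PPAR gamma is the lipid-storage receptor of fat and is also present in endothelial cells and macrophages. Its CPM was 10.0, 5.77, 8.72 and 7.79 in C1 to C4. It was 14.9, 15.1, 12.8 and 11.1 in V1 to V4. It was 3.29, 7.99, 7.11 and 8.72 in T1 to T4. Every HFpEF-Veh library stood above every library of the other groups, and T1 was the lowest of all 12. The level in HFpEF-TYA-018 was 0.501 times that in HFpEF-Veh (log2 fold change -0.996, SE 0.26, adjusted p = 0.0195, edgeR). The rise from Control-Veh to HFpEF-Veh was 1.67-fold and did not pass (log2 0.74, SE 0.25, adjusted p = 0.0566). Of 10 other settings 2 called this rise, among them DESeq2 (adjusted p = 0.0134), with adjusted p up to 0.237 in the rest. Of 8 fits with a library left out 1 called it, that without C1 (adjusted p = 0.0399, up to 0.146 in the rest). HFpEF-TYA-018 and Control-Veh overlapped (log2 -0.26, 95% interval -0.81 to 0.30). The fall after TYA-018 held without each of the 8 libraries compared, with log2 values from -1.14 to -0.76, and missed the threshold on log2(TPM + 1), where it was -0.43 (adjusted p = 0.0642). Of 10 other settings 7 called this fall, and none of the limma fits on log2 TPM did.

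Markers of some other cell types moved alongside Pparg. The 5 macrophage markers in the table (Adgre1 had no row) summed to 70.0003 to 86.7 CPM in Control-Veh, 104 to 132 CPM in undosed HFpEF and 68.0 to 81.2 CPM in HFpEF-TYA-018. All 5 were called higher in HFpEF-Veh than in controls, and 3 were called lower after TYA-018. The 6 endothelial markers summed to 608 to 761 CPM, 792 to 982 CPM and 596 to 773 CPM in the same order of groups, with 3 called higher and then 3 called lower. The 6 fibroblast markers summed to 569 to 973, 923 to 1335 and 600.4 to 944 CPM, with 2 called higher and 3 called lower. The 6 smooth muscle and pericyte markers were mixed. They summed to 594 to 706, 724 to 763 and 515 to 665 CPM, with 1 called higher and then 1 lower. By sign, however, 4 were lower in HFpEF-Veh than in controls and 4 were higher after TYA-018. Over all tested genes 21.2% were called in the first comparison and 19.3% after TYA-018. The part of these markers in the Pparg result was not tested.

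Ppard (chr17:28232700-28301474, plus strand), the PPAR found in most tissues and abundant in muscle, differed less. Counts of Ppard and Pparg were fractional in all 12 libraries, as estimated counts can be. Its CPM was 24.6, 24.98, 25.5 and 27.6 in C1 to C4. It was 28.1, 28.0, 29.7 and 32.0 in V1 to V4. It was 29.4, 27.3, 27.4 and 30.96 in T1 to T4. All HFpEF-Veh libraries exceeded all Control-Veh libraries, by a small margin. The difference was 14.7% (log2 0.20, SE 0.06, adjusted p = 0.0434, edgeR). The call was lost without C1, C2, C3, V3 or V4, with adjusted p up to 0.115. Of 10 other settings 5 called Ppard, with adjusted p up to 0.652 in the rest, and none of the limma fits on log2 TPM did. After TYA-018 the level was near that of HFpEF-Veh (log2 -0.03, 95% interval -0.17 to 0.10).

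Ppara, the main PPAR of fatty acid oxidation in heart and liver, was the least counted receptor, with 145 to 482 counts a library. Its CPM lay between 2.34 and 5.14 in Control-Veh, 3.09 and 6.09 in undosed HFpEF and 2.90 and 5.42 in HFpEF-TYA-018. These ranges overlapped throughout. The intervals of its log2 fold change were wide, -0.33 to 0.87 in HFpEF-Veh against Control-Veh and -0.53 to 0.67 after TYA-018, so a change of the size seen in Esrra was not detectable. Rxra was the steadiest member. Its CPM ran from 40.9 to 44.4 over all 12 libraries, a 1.09-fold range. Its log2 fold change lay within -0.11 to 0.08 (95% interval) in the first comparison and -0.09 to 0.10 after TYA-018.

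As a share of the 3 PPARs by TPM, Ppara made up 9.28% ± 5.86 in the controls, 6.16% ± 5.35 in undosed and 7.02% ± 4.22 in dosed HFpEF hearts (SD, n = 4). Shares between members were compared in TPM, and so carry the variation in length. No difference between these means passed (two-sided exact permutation p at least 0.486, of 9 family-share tests adjusted together, with 0.0286 the smallest p that 4 against 4 can give).

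**Figure D3:**
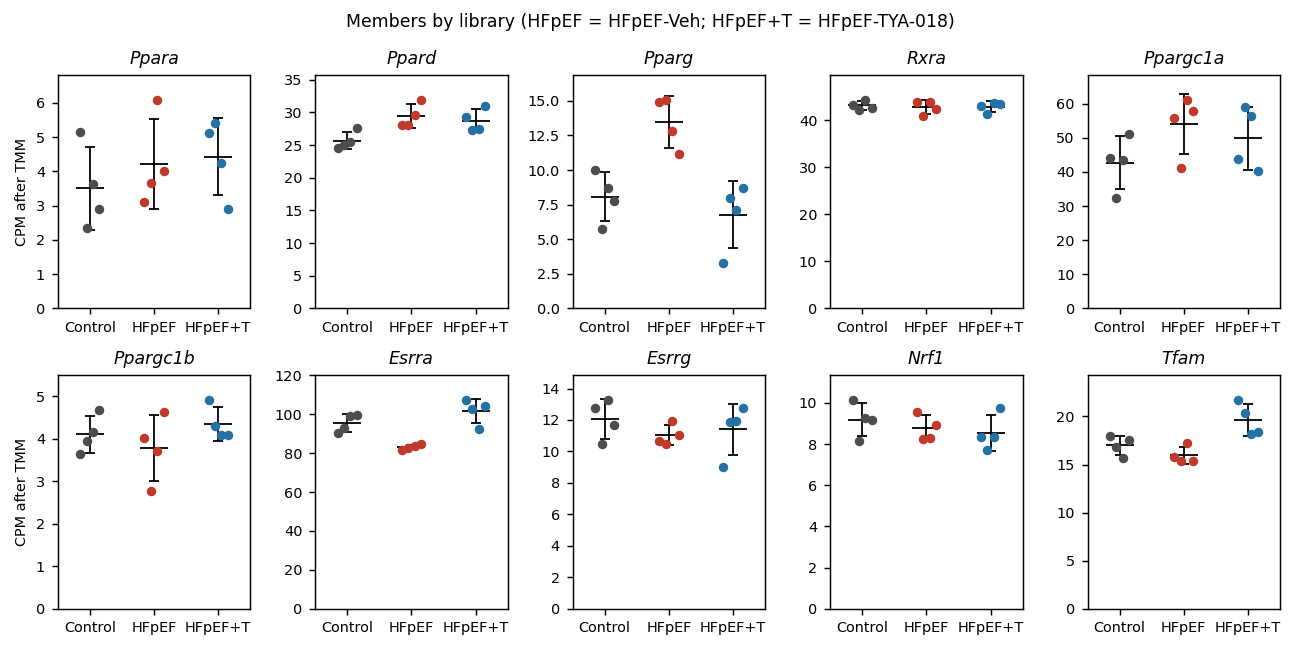
CPM after TMM of the 10 members, 1 point a library, with the group mean and SD (n = 4) as bars and axes starting at 0. The HFpEF-Veh points of Pparg sit above both other groups (11.1 to 15.1) and those of Esrra below them (81.8 to 84.5), and Rxra is level at 40.9 to 44.4.

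The coactivators were not called in any comparison. Ppargc1a encodes PGC-1 alpha, which is induced by energy demand and coactivates PPARs, ERRs and NRF1. Its CPM was 32.3 to 51.1 in Control-Veh, 41.1 to 61.2 in undosed HFpEF and 40.4 to 58.9 in HFpEF-TYA-018. The groups overlapped, although 3 of 4 HFpEF-Veh libraries exceeded all Control-Veh libraries (log2 0.34, 95% interval -0.02 to 0.69, adjusted p = 0.163, edgeR). After TYA-018 the difference was -0.12 on the log2 scale (95% interval -0.47 to 0.24). Ppargc1b, its relative PGC-1 beta, was counted 165 to 463 times a library. Its CPM was 3.64 to 4.67, 2.78 to 4.63 and 4.08 to 4.92 in the 3 groups. Its log2 fold change after TYA-018 was 0.20 (95% interval -0.12 to 0.52). Ppargc1a made up 73.8% ± 4.53, 75.2% ± 4.83 and 77.3% ± 3.75 of the TPM of the pair (exact permutation p at least 0.314). By CPM the share was 93.4% in HFpEF-Veh and 91.1% in the controls, and by count over mean length 78.8% and 72.7%. Each of these differences had an exact permutation p of 0.0286, the smallest possible, and 0.257 after adjustment over 9 tests.

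Esrra (chr19:6910977-6921813, minus strand) was the member with the smallest p after TYA-018. ERR alpha is abundant in heart and drives oxidative metabolism genes. Its CPM was 90.3, 93.1, 99.3 and 99.6 in C1 to C4. It was 81.8, 82.4, 83.7 and 84.5 in V1 to V4. It was 107, 102, 92.5 and 104 in T1 to T4. The HFpEF-Veh libraries were the lowest 4 of 12 and lay close together, and the other groups overlapped. Esrra was 13.1% lower in HFpEF-Veh than in controls (log2 -0.20, SE 0.06, adjusted p = 0.0278, edgeR). It was 22.3% higher in HFpEF-TYA-018 than in HFpEF-Veh (log2 0.29, SE 0.06, adjusted p = 0.00619). Between HFpEF-TYA-018 and Control-Veh the log2 difference was 0.09 (95% interval -0.04 to 0.21).

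With 1 library left out, the log2 fold change of the first comparison stayed within -0.228 to -0.181, but its call did not always hold. The call was lost without C3, without C4 and without each HFpEF-Veh library in turn (adjusted p up to 0.0822). The call after TYA-018 held without each of the 8 libraries. The deposited lengths also bear on both. With effective lengths as an offset the log2 fold change was 0.02 in the first comparison (adjusted p = 0.943) and 0.17 after TYA-018 (adjusted p = 0.487). Of 10 other settings 6 called Esrra in each comparison, and none of the limma fits on log2 TPM did. The effective length of Esrra ran from 1277 bases in V3 to 2086 bases in V4, and its TPM was 22.9 in V3 and 11.9 in V4 at nearly equal CPM. Of the 4387 exon bases of Esrra in GENCODE M21, 73 are shared with exons of Trmt112 on the other strand and 91 with Mir6990 on the same strand. Trmt112 itself was not called (log2 -0.23 and 0.14 in the first and second comparison, with the same signs as Esrra). The part of these shared bases in the Esrra result was not tested.

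Esrrg, the ERR of fetal and adult heart muscle that shares targets with ERR alpha, did not follow Esrra past the test. Its CPM was 10.5 to 13.3 in Control-Veh, 10.5 to 11.9 in undosed HFpEF and 9.03 to 12.8 after TYA-018. The log2 fold change was -0.13 in the first comparison (95% interval -0.36 to 0.11) and 0.05 after TYA-018 (95% interval -0.19 to 0.28). The interval of the first comparison includes the change measured for Esrra, and that after TYA-018 ends just short of it. The difference between the members was not tested. Esrra made up 95.9% ± 0.372 of the TPM of the pair in the controls, 96.7% ± 1.36 in undosed and 97.1% ± 0.474 in dosed HFpEF hearts (SD, n = 4). The difference of 1.22 percentage points between HFpEF-TYA-018 and Control-Veh had an exact permutation p of 0.0286, the smallest possible, and 0.257 after adjustment over the 9 tests. By CPM this difference was 1.09 points and by count over mean length 0.346 (exact permutation p = 0.343 for each).

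Tfam (chr10:71225464-71238280, minus strand) was the other member that rose after TYA-018. Its CPM was 17.9, 16.8, 15.7 and 17.6 in C1 to C4. It was 15.8, 15.4, 17.3 and 15.4 in V1 to V4. It was 21.7, 20.3, 18.2 and 18.3 in T1 to T4. Every HFpEF-TYA-018 library exceeded every library of the other groups. The rise against HFpEF-Veh was 23.1% (log2 0.30, SE 0.07, adjusted p = 0.0158, edgeR). Without T1 it was 0.25 on the log2 scale and just missed the threshold (adjusted p = 0.0525). The rise was also not called with limma on log2(TPM + 1) and genes selected as by the authors (adjusted p = 0.0850). Against Control-Veh it was 15.6% (log2 0.21, SE 0.07, adjusted p = 0.117). With effective lengths as an offset that difference was 0.54 (adjusted p = 0.0415). HFpEF-Veh and Control-Veh overlapped (log2 -0.09, 95% interval -0.25 to 0.07). Nrf1, which encodes nuclear respiratory factor 1 and shares its short name with the unrelated stress factor Nfe2l1, was not called. Its CPM was 8.16 to 10.1, 8.26 to 9.58 and 7.72 to 9.77 in the 3 groups, and its log2 fold change after TYA-018 was -0.04 (95% interval -0.24 to 0.16).

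Cardiomyocyte markers moved alongside Esrra. The 7 genes summed to 22316.8 to 30475.5 CPM in Control-Veh, 17748.2 to 19568.9 CPM in undosed HFpEF and 20456.1 to 22750.1 CPM in HFpEF-TYA-018. In HFpEF-Veh 5 of 7 were called lower than in Control-Veh, and 2 of 7 were called higher after TYA-018. Over all tested genes 21.2% and 19.3% were called. Against Control-Veh, HFpEF-TYA-018 had 1 of 7 called lower and 0 higher (3 higher and 4 lower by sign). The median log2 fold change of the 7 was -0.28 in that comparison, where Esrra was at 0.09. Their part in the Esrra and Tfam results was not tested.

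For each called member, the 3 tested genes with the most similar profile were found by Pearson's r of log2 CPM over the 12 libraries, among 8864 genes with a mean of at least 5 CPM. These values are descriptions, and the libraries share their groups. For Esrra they were 0610009O20Rik (r = 0.944), Tbrg4, a regulator of mitochondrial RNA (0.943), and Trap1, a mitochondrial chaperone (0.9397). For Tfam they were Kdm1a, a histone demethylase (0.935), Usp5, a deubiquitinase (0.912), and Med9, a Mediator subunit (0.908). For Pparg they were Actr2, a subunit of the actin-branching Arp2/3 complex (0.951), Kctd12 (0.942) and Cbfb, the partner of RUNX factors (0.934). For Ppard they were Trim8 (0.907), Dazap2 (0.871) and Acsf2, an acyl-CoA synthetase (0.868). With group means taken out, r in the same order was 0.70, 0.76 and 0.66 for Esrra and 0.93, 0.70 and 0.71 for Tfam. It was 0.88, 0.88 and 0.90 for Pparg and 0.80, 0.70 and 0.79 for Ppard.

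The genes around the members were described by lists chosen for their roles, with earlier results of these data known. Over all tested genes, 21.2% were called in HFpEF-Veh against Control-Veh, 19.3% after TYA-018 and 5.86% in HFpEF-TYA-018 against Control-Veh. The list counts below stand beside these shares, and no list was tested as a set. Of 27 testable PPAR target genes, 11 were called higher and 2 lower after TYA-018, with a median log2 fold change of 0.24 against 0.00 over all genes. Against Control-Veh, HFpEF-TYA-018 had 12 called higher and 1 lower. Between HFpEF-Veh and Control-Veh, 2 were called higher and 3 lower. Ucp2, a mitochondrial carrier, rose from 55.0 ± 4.86 to 111.7 ± 8.44 CPM and fell to 61.7 ± 4.26 CPM after TYA-018 (log2 1.02 and -0.86, adjusted p = 8.31e-05 and 0.000293, edgeR). Ucp3, the carrier of muscle, ran the other way, from 81.7 ± 4.79 to 34.2 ± 7.65 and then 51.8 ± 13.8 CPM (log2 -1.25 and 0.60). Hadhb, of the trifunctional protein of fatty acid oxidation, rose after TYA-018 from 830.0 ± 73.3 to 1139 ± 65.1 CPM (log2 0.46, adjusted p = 0.00263). With effective lengths as an offset, 6 and not 13 of these target genes were called after TYA-018.

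Of 19 target genes of ERR and PGC-1, 12 were called higher and 0 lower after TYA-018, with a median log2 fold change of 0.34. In HFpEF-Veh against Control-Veh 5 were called lower and 0 higher, with a median of -0.16. Ndufa9, a subunit of complex I, was at 94.3 ± 13.3 CPM in the controls, 83.6 ± 8.23 in undosed and 142.9 ± 16.4 in dosed HFpEF hearts (log2 0.77 after TYA-018, adjusted p = 0.00156, edgeR). Uqcrfs1, of complex III, went from 448.9 ± 16.1 to 585.3 ± 20.5 CPM after TYA-018 (log2 0.38). Cs, citrate synthase of the citric acid cycle, rose by 0.34 on the log2 scale. With effective lengths as an offset 7 of the 19 were called after TYA-018, and the count was 7 to 11 when any of the 8 libraries was left out.

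Of 13 NRF1 target genes, 4 were called higher and 0 lower after TYA-018, and 2 were called lower and 0 higher in HFpEF-Veh against Control-Veh. Over all tested genes 19.3% and 21.2% were called in these comparisons. Ndufb6, of complex I, went from 81.9 ± 5.73 to 120.6 ± 10.98 CPM after TYA-018 (log2 0.56, adjusted p = 0.00603, edgeR). Sdhd, of complex II, rose by 0.30 on the log2 scale. Atp5g1, of ATP synthase, was lower by 0.39 in HFpEF-Veh than in Control-Veh and higher by 0.39 after TYA-018, on the log2 scale.

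The 22 partners of Tfam in transcription and replication of mitochondrial DNA included 7 called higher and 0 lower after TYA-018 (median log2 fold change 0.20), and 4 called lower and 0 higher in HFpEF-Veh against Control-Veh (median -0.19). Lonp1, the protease that degrades TFAM, went from 89.4 ± 5.98 to 111.1 ± 4.84 CPM after TYA-018 (log2 0.31, adjusted p = 0.00869, edgeR). Lrpprc, which stabilises mitochondrial messenger RNA, rose by 0.36. Tbrg4 and Mterf2 were lower by 0.20 and 0.34 in HFpEF-Veh than in Control-Veh and rose by 0.29 and 0.30 after TYA-018. Polrmt, the mitochondrial RNA polymerase, was lower by 0.22 and rose by 0.20. With effective lengths as an offset 2 of these 22 were called after TYA-018 and 0 in the first comparison.

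Of the 13 messenger RNAs made from mitochondrial DNA, 6 were called lower and 0 higher after TYA-018 (median log2 fold change -0.30), whereas Tfam was called higher, and in HFpEF-Veh against Control-Veh 4 were called higher and 0 lower (median 0.23). For mt-Atp6 the log2 fold change after TYA-018 was -0.64 (adjusted p = 0.0138), and for mt-Nd1 -0.36 (adjusted p = 0.0198, edgeR). For mt-Nd5 it was 0.53 in the first comparison and -0.64 after TYA-018 (adjusted p = 0.0382 and 0.0203). For mt-Co1 it was 0.47 in the first comparison (adjusted p = 0.0133) and -0.30 after TYA-018 (adjusted p = 0.0811). With no filter on low counts, 0 of 13 were called in the first comparison and 1 after TYA-018.

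**Figure D4:**
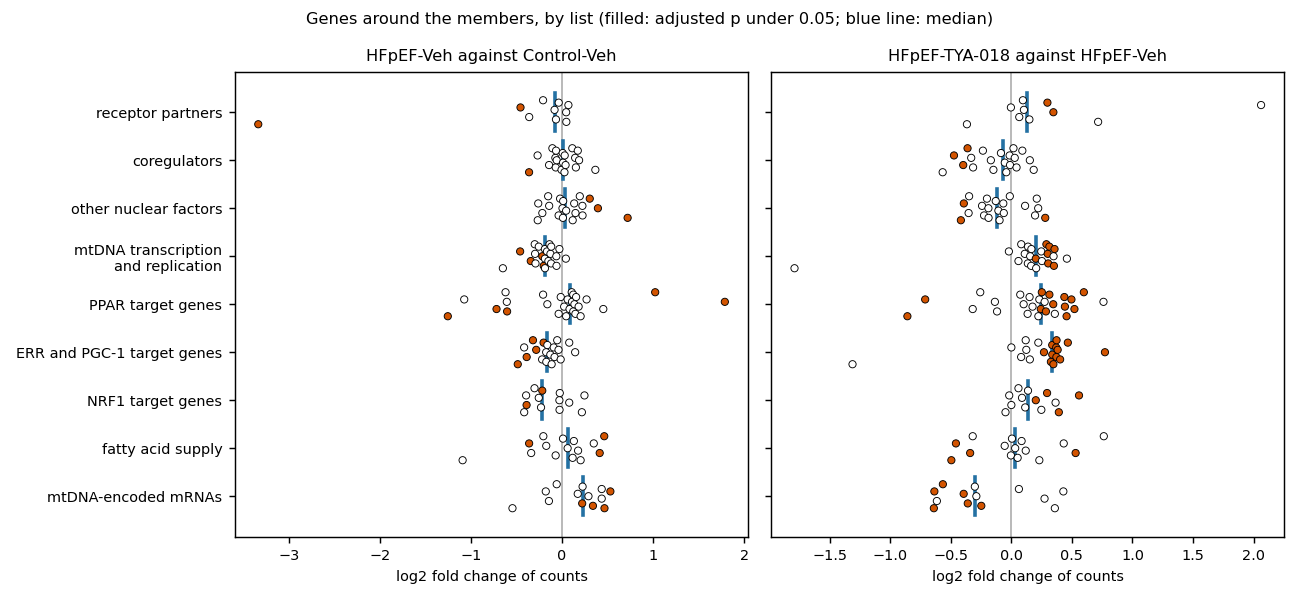
Log2 fold change of counts of every tested gene of 9 lists around the members, 1 circle a gene, for HFpEF-Veh against Control-Veh and for HFpEF-TYA-018 against HFpEF-Veh. Filled circles passed an adjusted p under 0.05 and the blue line is the list's median, which after TYA-018 lies at 0.34 for ERR and PGC-1 targets and at -0.30 for mitochondrially encoded messenger RNAs.

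Receptors that pair with or resemble the members gave a mixed picture. Their shares called were near those of all tested genes (21.2% in the first comparison and 19.3% after TYA-018). Of 10, 2 were called higher after TYA-018, namely Rxrb (27.2 ± 0.643 to 33.4 ± 1.86 CPM, log2 0.30, adjusted p = 0.00285, edgeR), a sister of Rxra, and Esrrb (17.1 ± 2.59 to 21.8 ± 1.82 CPM, log2 0.35, adjusted p = 0.0347), a sister of Esrra. In HFpEF-Veh against Control-Veh 2 were called lower. Thrb, a thyroid hormone receptor, went from 12.5 ± 1.16 to 9.15 ± 0.9396 CPM and stood at 9.13 ± 0.506 CPM after TYA-018. Hnf4a was near 0 in all groups, at 0.441 ± 0.223, 0.0427 ± 0.0415 and 0.184 ± 0.176 CPM.

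Of 20 coactivators, corepressors and modulators of PGC-1, 3 were called lower and 0 higher after TYA-018, a share not above the 19.3% of all tested genes. Ncoa3, a nuclear receptor coactivator, fell from 54.1 ± 2.47 to 41.1 ± 3.95 CPM (log2 -0.40, adjusted p = 0.00337, edgeR). Nrip1, a corepressor of PPAR and ERR targets, fell by 0.47 on the log2 scale, and Sirt1, a deacetylase of PGC-1 alpha, by 0.36. Mybbp1a, a repressor of PGC-1 alpha, was lower in HFpEF-Veh than in controls (log2 -0.36, adjusted p = 0.00355). Of 20 other nuclear factors of mitochondrial programs, 3 were called higher in HFpEF-Veh against Control-Veh, and after TYA-018 1 was called higher and 2 lower. These shares too were not above those of all tested genes (21.2% and 19.3%). Klf4 went from 58.4 ± 9.10 to 96.3 ± 4.42 CPM in HFpEF-Veh (log2 0.72) and Foxo1 from 17.0 ± 1.29 to 22.4 ± 1.29 CPM (log2 0.39). Creb1, which induces Ppargc1a in fasting, fell by 0.42 after TYA-018 (adjusted p = 0.00999), and Hif1a by 0.39 (adjusted p = 0.0281).

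Genes that supply fatty acid ligands went both ways. Of 15 testable, 2 were called higher and 1 lower in HFpEF-Veh against Control-Veh, and 1 higher and 3 lower after TYA-018. Among all tested genes 21.2% and 19.3% were called. Gpihbp1, which holds lipoprotein lipase on capillary endothelium, went from 123.9 ± 9.32 to 165.1 ± 9.21 and then 117.1 ± 7.05 CPM (log2 0.41 and -0.49, adjusted p = 0.00218 and 0.00140, edgeR). Mgll, a monoacylglycerol lipase, moved alike (log2 0.46 and -0.46). Lpl, lipoprotein lipase, was lower in HFpEF-Veh than in controls (log2 -0.36, adjusted p = 0.0146) and differed by 0.01 after TYA-018. Dgat2, which makes triglyceride, rose after TYA-018 from 161.6 ± 15.6 to 233.5 ± 16.1 CPM (log2 0.53, adjusted p = 0.00156). The lists share some genes, among them Polrmt (NRF1 targets and mitochondrial DNA), Esrrb (receptors and ERR targets) and Cd36 and Fabp3 (PPAR targets and fatty acid supply).

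Genes of the clock and of fasting were counted because they vary with time of day and feeding. Of 16 clock genes, 1 was called higher and 5 lower in HFpEF-Veh against Control-Veh, and 3 higher and 1 lower after TYA-018, where 21.2% and 19.3% of all genes were called. Of 12 glucocorticoid and fasting genes, 4 were called higher in the first comparison and 5 lower after TYA-018. Their summed level was 1353 to 1665 CPM in Control-Veh, 1550.1 to 1680.0 in undosed HFpEF and 1115 to 1417 in HFpEF-TYA-018. All 5 red cell genes were called higher in HFpEF-Veh than in controls and lower after TYA-018. The part of these genes in the members' values was not tested.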

How the data were processed

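RNA with poly(A) tails from 12 mouse left ventricles was measured by RNA sequencing, and samples were grouped by their labels. Per the labels, the deposited tables came from Salmon 1.6.0. The study's methods add trimming with fastp, a mouse GENCODE reference on GRCm38 and gene sums by tximport, whereas the labels list the human build hg38, and the mouse gene names followed the methods. The authors deposited estimated counts (expected counts, not normalised), TPM, and a table of other values, the effective length of each gene in each library. The labels and methods give different read lengths and read numbers, and strand settings of the counting are not given in the sources used here. All columns were used (0 left out).

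Counts were rounded, and edgeR 4.0.16 (R 4.3.3) was used for the tests. filterByExpr kept 14333 genes, which hold 99.98% of counts, TMM scaled libraries, and a single quasi-likelihood model covered the 3 groups (9 residual degrees of freedom, common biological coefficient of variation 0.232). Tests were two-sided, and p-values were adjusted over all tested genes. Mean ± SD is over n = 4 mice. The 95% intervals come from the fitted SE. The code was tested on simulated data with less spread than these libraries, which says nothing of power here. Family shares used exact permutation tests. Alternatives used RLE scaling, DESeq2 1.42.0, other filters, lengths, limma 3.58.1 on log2(TPM + 1) and log2(TPM + 0.1), and libraries left out in turn. Named genes were the members, the 4 genes with the smallest p in each list among those called in the first or second comparison (members left out), and the 3 most similar genes of each called member. Of these, 2 list genes are not reported here. Trmt112 and marker genes were named outside this rule after their values were seen. Gene positions and transcript lengths came from GENCODE M21 and start regions from RefSeq, for 9 members. Members and lists were chosen with earlier results of these data known. Precision rests on 4 mice a group, and counting intervals were not used.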

Additional observations from a re-analysis of the deposited data

Results flagged for a closer look

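Within each group of 4 libraries, the highest or lowest value was compared with the rest of its group (gap over range, against Dixon's 95% critical value). Values were the CPM, TPM and effective length of each member, the family shares, and the total counts, mitochondrial and globin shares of libraries. Of 108 groups of values 8 passed, and chance passes about 1 in 20. None of the 30 groups of CPM values passed, against 5 of 30 for TPM and 3 of 30 for effective length. T1 stood apart in TPM for Ppard (5.93, the others 3.72 to 4.03), Esrra (34.6, the others 20.6 to 22.0) and Nrf1 (2.03, the others 1.06 to 1.18). Pparg was at 2.09 TPM in V4 (the others 2.85 to 2.94) and Rxra at 2.23 TPM in C1 (the others 1.96 to 2.01). The effective length of Ppargc1b was 1483 bases in V3 (the others 2245 to 2336). That of Nrf1 was 1486 bases in C3 (the others 2537 to 2738) and 2062 bases in T1 (the others 2662 to 2751).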

How the results depend on the processing

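No paired analysis was possible because the groups share none of their animal numbers. Of 300 member fold changes under another setting, 242 kept direction and side of the threshold, and of 240 with 1 library left out, 210 did. Members called in HFpEF-Veh against Control-Veh numbered 1 with no filter on low counts, 1 with effective lengths as offset, and 0 with limma on log2(TPM + 1), on log2(TPM + 0.1) and on log2(TPM + 1) with genes selected as by the authors. After TYA-018 these limma fits called 1 (Tfam), 1 (Tfam) and 0. Against Control-Veh, HFpEF-TYA-018 had 1 with effective lengths. Across the 3 groups the count was 1 with effective lengths and 0, 1 and 1 with the limma fits. The cause was not tested.

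The TPM of the libraries shifted the median log2 fold change of all genes after TYA-018 by 0.17 with log2(TPM + 1) and by 0.34 with log2(TPM + 0.1). With log2(TPM + 1), 2228 genes were then called higher and 68 lower (97.0% higher), against 46.3% higher of the 2767 called on counts. By edgeR, 3033 genes were called for the disease model, 2767 after TYA-018 and 840 between dosed and control hearts. They were 1444, 1221 and 206 with effective lengths, 1055, 742 and 94 with the authors' gene selection, 172 and 9 (first and last) with log2(TPM + 1), and 301, 2618 and 11 with log2(TPM + 0.1). DESeq2 called 1514 in the last comparison.

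Directions turned for these log2 fold changes, none of them called after turning. In HFpEF-Veh against Control-Veh with effective lengths, Ppara was -0.14, Ppargc1b 0.090, Esrra 0.021, Rxra 0.095 and Tfam 0.10. With the authors' gene selection they were -0.20, 0.093, 0.054, 0.13 and 0.15. Ppara was -0.12 and Ppargc1a -0.031 with log2(TPM + 1), and -0.43 and -0.046 with log2(TPM + 0.1). After TYA-018 with effective lengths, Ppara was -0.38, Ppargc1a 0.17, Ppargc1b -0.049 and Rxra -0.031. With the authors' gene selection they were -0.12, 0.13, -0.027 and -0.039. Ppard was 0.22, Ppargc1a 0.42 and Nrf1 0.23 with log2(TPM + 1), and 0.27, 0.57 and 0.38 with log2(TPM + 0.1). Rxra was -0.000206 with RLE scaling, -0.000251 with DESeq2 and -0.00123 with at least 1 CPM in 4 libraries. In HFpEF-TYA-018 against Control-Veh, Ppara was -0.53, -0.070, -0.18 and -0.32 with effective lengths, log2(TPM + 1), log2(TPM + 0.1) and the authors' gene selection. Rxra was 0.064, 0.21, 0.28 and 0.088 in the same order and 0.000515 with only the groups compared.

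With each library left out in turn, members called in HFpEF-Veh against Control-Veh ranged from 0 to 2 (0 without C3, V3 or V4). Directions turned within -0.053 to 0.30 for Ppara, -0.069 to 0.0083 for Ppard, -0.014 to 0.14 for Esrrg, -0.0178 to 0.0213 for Rxra and -0.11 to 0.00684 for Nrf1 after TYA-018. They turned within -0.22 to 0.0091 for Ppargc1b and -0.0249 to 0.0117 for Rxra in HFpEF-Veh against Control-Veh. They turned within -0.14 to 0.0154 for Esrrg and -0.0179 to 0.00987 for Rxra in HFpEF-TYA-018 against Control-Veh. By count over mean length, the share of Ppargc1a differed by 6.04 percentage points in HFpEF-Veh against Control-Veh and by -4.27 after TYA-018, and that of Esrra by 0.346 in HFpEF-TYA-018 against Control-Veh. By CPM the share of Esrra differed by -0.518 and 1.605 in the first comparison and after TYA-018. Counts a library were lowest for Ppara (145 to 482) and Ppargc1b (165 to 463).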
